A study of Danio rerio with 17 samples.

Results

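Read counters for RNA-seq commonly collect reads that overlap no annotated gene in a no-feature line. Here libraries with a high no-feature share were compared with libraries with a low one inside each treatment group, to show which genes went along with that share. The share is the no-feature count divided by the sum of all counts of the library. Within each group, libraries were ranked by it. The top 3 and bottom 3 were taken in Glucose and in FFA, and the top 2 and bottom 2 in Control, whose middle library, Control 6, was left out. This gave 8 high and 8 low libraries, 16 of the 17 in the study. The libraries were thus chosen by a measured value, their no-feature share, and the classes are not a treatment.

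All libraries were made from whole zebrafish embryos of the AB line at 72 hours post fertilization (hpf), with 10 embryos per pool. Control embryos carry no treatment in the labels, Glucose embryos were held in 3% glucose, and FFA embryos had a BODIPY-labeled lipid at 1 mg/ml in canola oil placed into the yolk, both from 24 hpf. Groups follow the sample titles (5 Control, 6 Glucose, 6 FFA), and in 11 of the 17 the treatment tag and the title disagree. Separate clutches are not stated for the pools, so a p-value here reflects how these pools vary, which may be technical.

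Reads from introns, from unannotated ends of genes and from regions between genes can all enter a no-feature line, and what these reads were here was not tested. An embryo at this age holds a brain and a retina in which neurons and photoreceptors are still forming, beside muscle, blood, liver, skin and a shrinking yolk. Counts from such a pool add up over all tissues. A change in a cell type's genes can therefore come from fewer cells or from less RNA per cell, and these cannot be told apart. Nor can they be told apart from a shift in other genes, because values scaled to library size are relative.

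The shares that made the classes are given as a description, without a test. In Control, replicates 1 and 2 (high) had 36.6% and 35.6% of all counts in the no-feature line. Replicate 6 had 33.5%, and replicates 3 and 4 (low) had 32.1% and 29.9%. In Glucose, the high replicates 4, 1 and 6 had 36.2%, 33.4% and 31.3%, and the low replicates 5, 2 and 3 had 30.8%, 30.7% and 30.2%. In FFA, the high replicates 4, 5 and 3 had 35.8%, 35.3% and 33.5%, and the low replicates 1, 2 and 6 had 32.3%, 32.2% and 31.1%. The cut in Glucose ran between neighbours at 31.3% and 30.8%, and that in FFA between 33.5% and 32.3%. Because the ranking was made within groups, the classes overlap on the plain scale: Control 3, FFA 1 and FFA 2, all low, lie above Glucose 6, which is high.

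**Figure D1:**
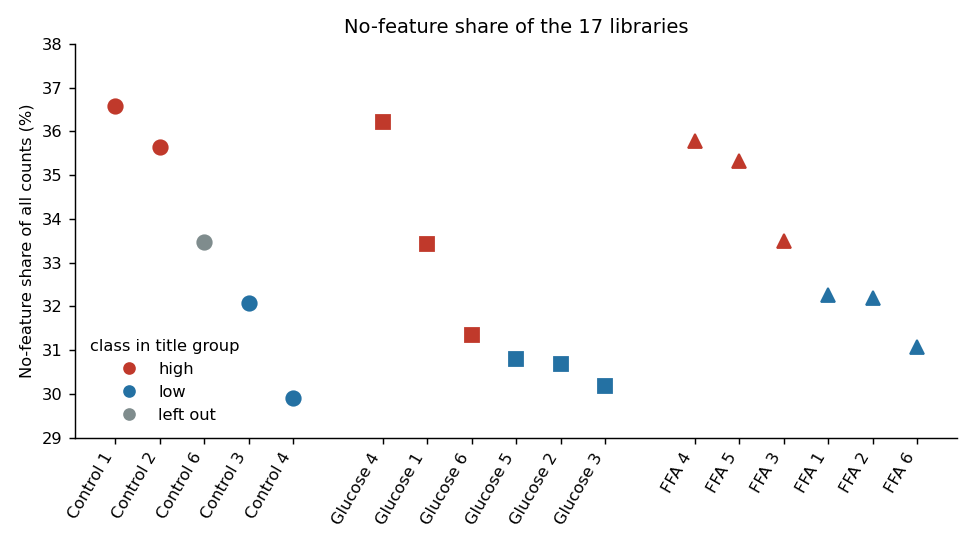
No-feature share of all counts (y axis, percent) in each of the 17 libraries (x axis), ordered within their title group; colour gives the class and marker shape the group. The shares run from 29.9% (Control 4) to 36.6% (Control 1), the high and low libraries of Glucose meet at 31.3% and 30.8%, and Control 6 is in neither class.

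Counts assigned to genes were 10.21 to 16.7 M (mega-counts) in the high libraries and 11.3 to 15.4 M in the low ones. Control 1, Control 2 and Glucose 4 have 3 of the 4 highest shares and the highest levels of the rod opsin gene rho, so the numbers of calls and the medians of the main lists without them are given at the end. Markers of brain, retina, muscle, blood, liver, skin and pancreas were all present, as the label of whole embryo implies.

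Genes of neurons and photoreceptors were higher in the high libraries, and genes of ribosomes, mitochondria, muscle, blood, liver and skin were lower. Of 13661 genes tested, 2927 (21.4%) were called higher and 2735 (20%) lower, at an adjusted p under 0.05 in edgeR's quasi-likelihood test with the title group as a block. The 2 directions differ in size. The median change of a called gene was 0.41 on the log2 scale among those higher and 0.22 among those lower. At least 2-fold changes were called for 243 genes (1.78%) that were higher and for 1 gene (0.00732%) that was lower, zgc:110286, which was named for that reason after its values were seen. Genes called higher held 18.1 ± 2.18% of all CPM (gene counts scaled to a common library total) in the high libraries and 13.9 ± 1.27% in the low ones (SD, n = 8 each), and genes called lower held 42.9 ± 3.84% and 50.4 ± 2.04%. Scaling by library size alone, in place of TMM, turned the split to 3629 higher and 1400 lower, and the median change of all genes from -0.04 to 0.02.

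Every high library lay above every low library of its own group, in all 3 groups, for 504 genes (3.69% of those tested). The reverse order held for 406 genes (2.97%). The largest changes among the called genes of the first kind with a mean of at least 5 CPM were mostly in genes of the nervous system. For slc32a1, which encodes the transporter that loads GABA and glycine into synaptic vesicles, the low, median and high values were 81.9, 141 and 197 CPM in the high libraries and 30.3, 57.6 and 72.6 CPM in the low ones. The ranges do not overlap even across groups, and the log2 fold change was 1.22 ± 0.21 (SE, adjusted p = 0.00247). For slc1a2b, a glial glutamate transporter, the values were 378, 646 and 827 CPM against 164, 308 and 377 CPM, again with no overlap (1.09 ± 0.19). The dynamin gene dnm1a, which acts in synaptic vesicle retrieval, ran from 31.6 to 65.1 CPM in the high libraries and from 14.9 to 30.6 CPM in the low ones.

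Developmental regulators were in the same set. The forebrain transcription factor genes fezf2, six3b and otpa were called, the first pair at 2.18-fold and 2.33-fold. For otpa, which is needed for hypothalamic neurons, the high libraries lay between 25.6 and 51.5 CPM and the low ones between 6.25 and 26.4 CPM (adjusted p = 0.00311). Genes of neuronal adhesion and wiring were dscama (1.09), ctnnd2b (1.08), igsf21a (1.11) and dab1b (1.37), a component of Reelin signalling. The RNA-binding protein gene celf5a (1.09) and pcdh15b (1.14), a protocadherin gene known from hair cell and photoreceptor function, complete the 12.

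The 12 largest changes in the other direction were smaller, with log2 values from -0.50 to -0.38, and came from several tissues. The embryonic beta-globin genes hbbe2 and hbbe1.3 had -0.42 and -0.40. For hbbe1.3 the high libraries lay between 96.3 and 155 CPM and the low ones between 130 and 214 CPM. The ranges overlap across groups and do not overlap inside any group. The related hbbe1.1, which is not among the 12, had -0.38. The ionocyte regulator foxi3a ran from 18.0 to 30.4 CPM in the high libraries and from 29.4 to 39.8 CPM in the low ones (-0.39 ± 0.08, adjusted p = 0.00279). The paraoxonase gene pon1 (-0.40), the calpain gene capn12 (-0.39) and c1qtnf5 (-0.38) were lower too, as were tmem130, tmem19, arl11, tor4aa, sec22ba and cxl34b.11.

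Members of 59 gene lists were then counted. Of 2246 tested list members, those of 10 lists had a median above 0.3, and all of these but the islet list are lists of neurons, retina or neural progenitors. Medians below -0.2 were found for 12 lists. The counts called lower depended on scaling. With library size alone they fell from 47 to 17 of 68 for mitochondrial ribosomal proteins and from 28 to 8 of 56 for matrix. They fell from 34 to 20 of 45 for proteasome, 30 to 19 of 47 for skin and 52 to 35 of 72 for liver. They stayed at 48 of 48 for the large ribosomal subunit and were 72 of 88 for the respiratory chain.

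**Figure D2:**
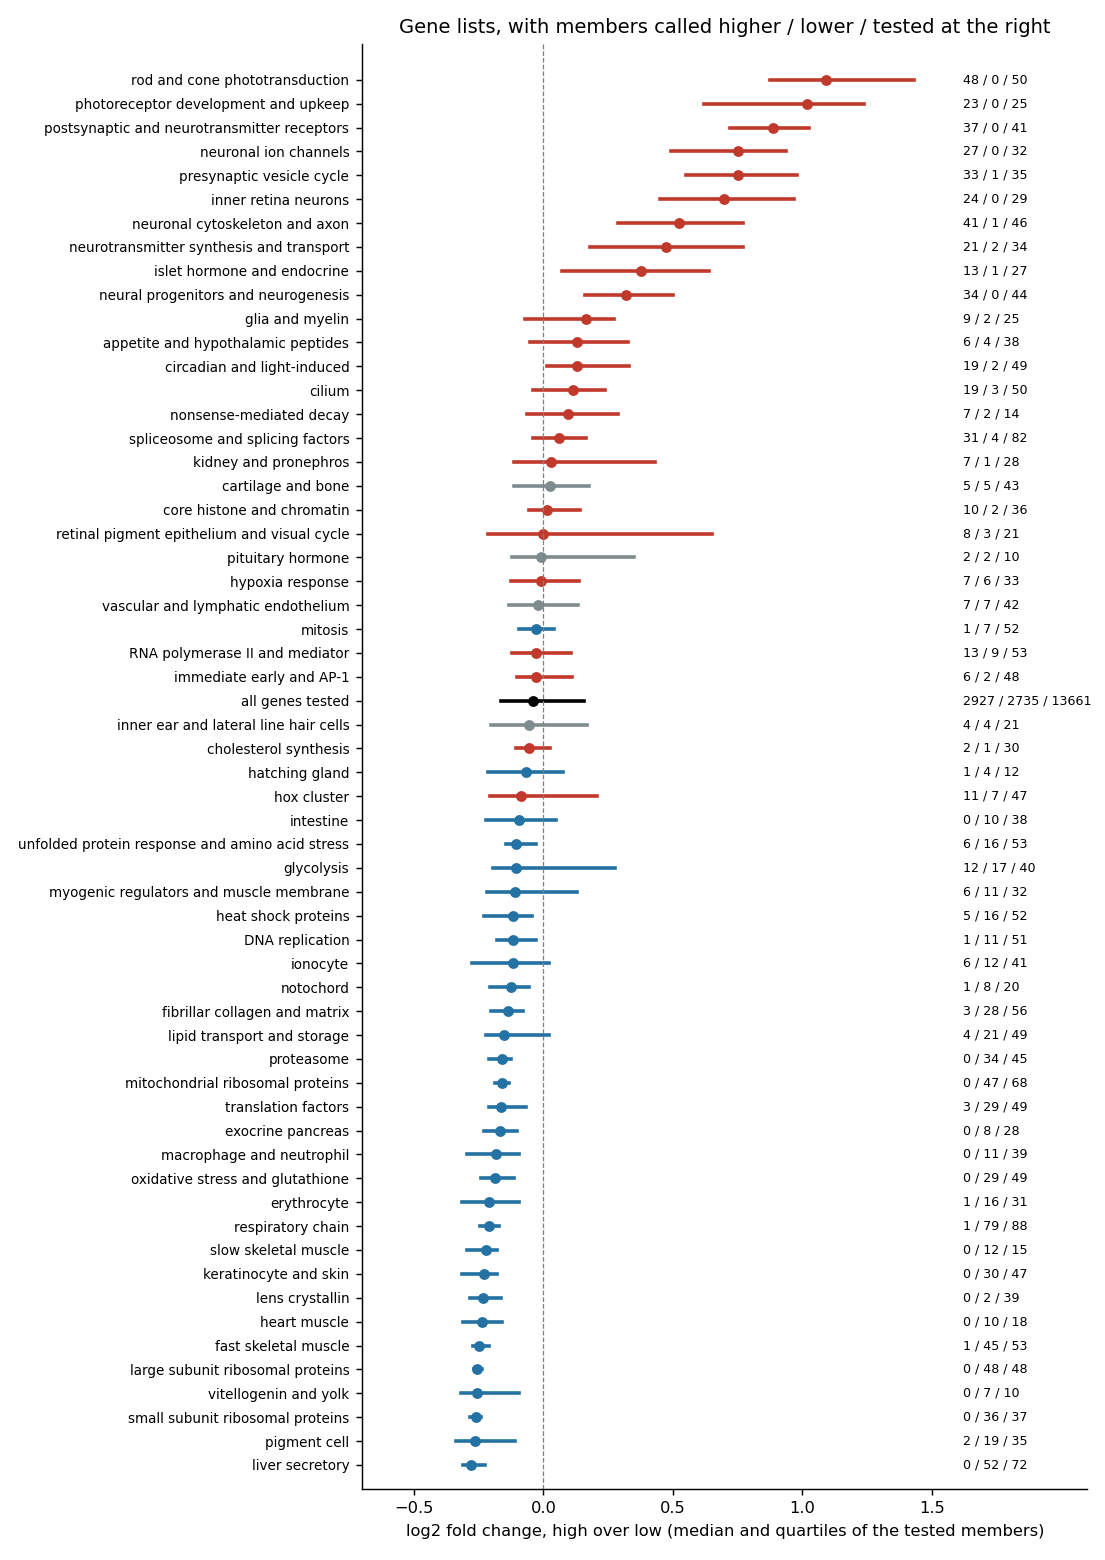
Median log2 fold change of high over low libraries (x axis; bars join the quartiles of the tested members) for 58 of the gene lists and for all genes tested (black), with the counts of members called higher, called lower and tested at the right; red lists have more members called higher, blue more called lower, grey as many of each. Photoreceptor, inner retina, neuronal and neural progenitor lists lie between 0.32 and 1.09, while ribosomal protein, respiratory chain, fast and slow muscle, heart, liver and skin lists lie between -0.28 and -0.16.

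Rods and cones turn light into an electrical signal through opsins, the G protein transducin, a cyclic GMP phosphodiesterase and cation channels, with arrestins and kinases ending the response. Of 50 tested genes of this cascade, 48 were higher and none was lower. The median log2 fold change was 1.09, against -0.04 over all genes. The 2 that missed the threshold were rgs9bp (adjusted p = 0.143) and pde6ga (0.116). For the rod opsin gene rho the low, median and high values were 251, 794 and 1460 CPM in the high libraries and 121, 263 and 477 CPM in the low ones, and the log2 fold change was 1.60 ± 0.37 (3.02-fold, adjusted p = 0.00512). These values separate by group only in Control, where Control 1 and 2 had 1460 and 1116 CPM and Control 3 and 4 had 299 and 149 CPM. In Glucose only replicate 4, at 1348 CPM, stood out, while the high replicates 1 and 6 (251 and 258 CPM) lay inside the range of the low ones. In FFA the high replicates had 473 to 905 CPM and the low ones 185 to 477 CPM.

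Cone genes showed the same layout. The ultraviolet opsin gene opn1sw1 had 549, 1450 and 2111 CPM in the high libraries and 373, 672 and 1528 CPM in the low ones (0.92 ± 0.26, adjusted p = 0.0115). The red opsin gene opn1lw2 (0.91), the cone transducin gene gnat2 (1.13) and the cone arrestin gene arr3a (2.15-fold) were higher as well. The low library FFA 2, at 1528 CPM of opn1sw1, lay among the high libraries, and Glucose 1 and 6, at 549 and 697 CPM, among the low ones. The transducin beta gene gnb1b, which is also used outside the eye, changed least (0.30) and had the smallest p of the list (adjusted p = 0.00252), with all high libraries (101 to 125 CPM) above all low ones (80.7 to 98.4 CPM). The summed level of the list was 2967 to 11877 CPM in the high libraries and 2204 to 6990 CPM in the low ones. Leaving out Glucose 4 lowered the number called higher to 34 and ended the call of opn1lw2 (adjusted p = 0.0647). With Glucose and FFA libraries alone 2 of 50 were called higher, at a median of 0.78. This is a smaller share than the 1009 of 13565 genes called higher in that fit.

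Photoreceptor development and upkeep genes followed, with 23 of 25 higher, none lower and a median of 1.02. They include the homeobox gene crx (1.98), named as the largest of its list after its values were seen. The ribbon synapse gene ctbp2a was at 71.4 to 130 CPM in the high libraries and 53.7 to 78.0 CPM in the low ones (0.62 ± 0.11). The proneural gene neurod1 (0.62) and the synaptotagmin gene syt5b (1.04) belong to the same list. Inner retina neurons, which relay the photoreceptor signal, had 24 of 29 genes higher and none lower, with a median of 0.70. Among them gad2, which makes GABA, had a log2 fold change of 0.97 and the horizontal cell gene onecut1 0.89. The ON bipolar cell channel gene trpm1a was the largest of all genes tested (2.15 ± 0.58), from a mean of 2.76 CPM, and was named for its size.

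The retinal pigment epithelium lies behind the photoreceptors and recycles their chromophore. The list of its genes and of the visual cycle, which also holds photoreceptor genes, did not move as a block. Of 21 genes 8 (38.1%) were higher and 3 (14.3%) lower, beside 21.4% and 20% of all genes tested, with a median of -0.00. Those higher include the interphotoreceptor retinoid carrier rbp3 (1.59), made by photoreceptors, and the retinaldehyde-binding protein genes rlbp1a (0.82) and rlbp1b (0.65). The 3 lower were the pigment enzyme gene tyr (-0.28), the retinol uptake receptor gene stra6 (-0.24) and rpe65b (-0.28). The related rpe65a (0.60, adjusted p = 0.0893) and rpe65c (0.27, adjusted p = 0.0897) were not called. In the fit of Glucose and FFA alone none of the 21 genes was called, beside 1485 of 13565 genes tested there. Lens genes had 2 of 39 (5.13%) lower and none higher, smaller shares than those of all genes tested. Their medians had opposite signs in the groups, at 0.07 in Control, -0.27 in Glucose and -0.40 in FFA. The lens chaperone gene cryaa was not called (-0.16 ± 0.19, adjusted p = 0.505), with 12.1 to 39.3 CPM in the high libraries and 8.46 to 56.8 CPM in the low ones.

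Synapses and axons made up the second block of higher genes. Of the presynaptic vesicle cycle genes, 33 of 35 were higher and 1 was lower, nsfb (-0.21), with a list median of 0.75. The SNARE gene snap25a, which drives vesicle fusion, had 330, 380 and 416 CPM in the high libraries and 185, 290 and 348 CPM in the low ones, a change of 0.41 ± 0.09 (adjusted p = 0.00492). Its classes separate in 2 of the 3 groups. The calcium sensor gene syt1a (0.92) and the synapsin gene syn2a (0.61) separated in all 3.

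Of the postsynaptic and neurotransmitter receptor genes 37 of 41 were higher and none was lower, with a median of 0.89. The NMDA receptor gene grin1b had 141, 277 and 449 CPM against 66.5, 137 and 259 CPM (1.03 ± 0.22, adjusted p = 0.00385). The neurexin gene nrxn1a (0.95) and the GABA receptor gene gabrb2 (0.74) were higher with it. Neuronal ion channel genes were higher in 27 of 32 cases and lower in none, at a median of 0.75, with the sodium channel genes scn8aa (0.82) and scn2b (0.68) and the potassium channel gene kcnd3 (1.02) among them. Neurotransmitter synthesis and transport genes were split, at 21 higher and 2 lower of 34. Here glulb, a glutamine synthetase gene, was lower (-0.16 ± 0.05, adjusted p = 0.0133). Its paralog glula was higher (0.17 ± 0.05, adjusted p = 0.0114), as were slc32a1 and slc1a2b.

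Neuronal cytoskeleton and axon genes were higher in 41 of 46 cases and lower in 1. The neuronal RNA-binding protein gene elavl3, a common marker of young neurons, had 91.9, 133 and 174 CPM in the high libraries and 47.2, 78.2 and 112 CPM in the low ones (0.80 ± 0.17, adjusted p = 0.00387). The adhesion gene ncam1b had a change of 0.72. The 2 most abundant members were not called: tubb2b had 0.10 ± 0.05 (adjusted p = 0.0825) and tubb4b, a tubulin gene, -0.06 ± 0.04 (0.238).

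Of 44 neural progenitor genes 34 were higher and none was lower, with a median of 0.32, below that of the synaptic and channel lists. The transcription factor gene sox4a had 268, 341 and 386 CPM against 160, 223 and 246 CPM, with no overlap (0.60 ± 0.10, adjusted p = 0.00247). The RNA-binding protein gene msi2b (0.44) and the receptor gene notch3 (0.33) separated in all 3 groups too. Of 25 glial genes 9 (36%) were higher and 2 (8%) lower, beside 21.4% and 20% of all genes tested. Those higher include slc1a2b (1.09), slc1a3b (0.48) and olig2 (0.48). The related slc1a3a had the lowest value of the neurotransmitter synthesis and transport list (-0.39). The astroglial filament gene gfap was not called (0.21 ± 0.16, adjusted p = 0.285), nor was the myelin gene mbpb (-0.09 ± 0.06, 0.214), and apoeb was lower (-0.36). Genes of lateral line and inner ear hair cells were called in 4 cases each way of 21, shares near the 21.4% and 20% of all genes tested.

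The islet list had 13 of 27 genes higher and 1 lower. Those higher include genes of secretory granules and of transcription that neurons also use, such as cpe (0.70), pcsk1nl (0.72), pcsk2 (0.87) and neurod1. Also higher was abcc8 (0.46). The 1 lower was ins, the insulin gene (-0.32 ± 0.09, adjusted p = 0.0147). The hormone genes gcga (-0.23), gcgb (-0.12), sst2 (-0.10) and sst1.1 (-0.01) were not called. Nor were ghrl (0.38), pyyb (0.24), cort (0.23) and pyya (0.21), which had the opposite sign. Of 38 genes of appetite and hypothalamic peptides, 6 were higher, led by oxt (1.07) and trh (0.80), and 4 were lower, smaller shares than the 21.4% and 20% of all genes tested. The feeding peptide genes agrp (-0.17 ± 0.14) and cart4 (0.11 ± 0.11) were not called.

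**Figure D3:**
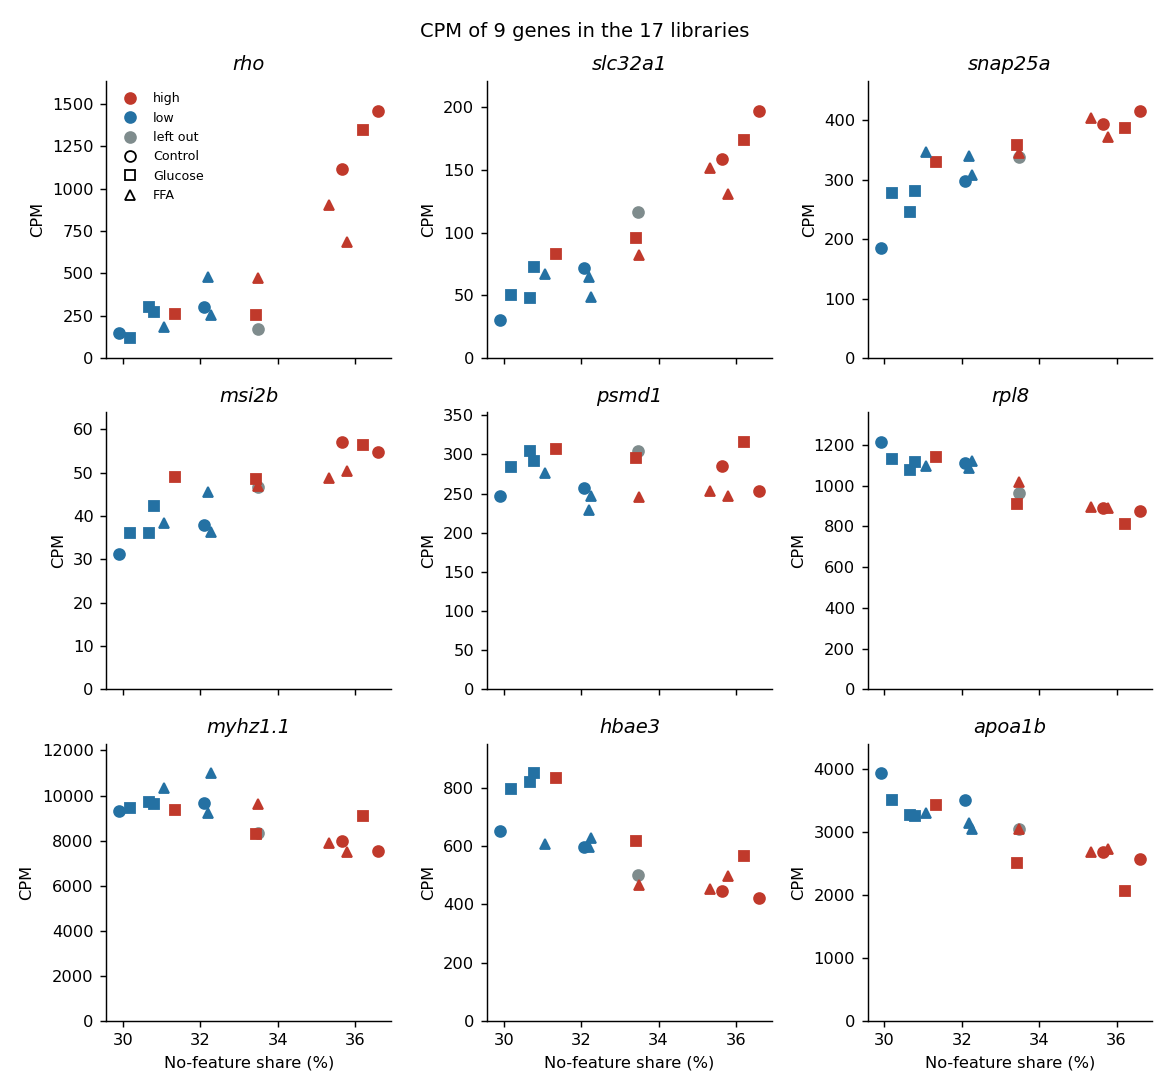
CPM (y axes, from 0) of 9 genes against the no-feature share (x axes, percent) in the 17 libraries; colour gives the class and shape the title group. The rod gene rho is high in a few libraries only (1460, 1348 and 1116 CPM in Control 1, Glucose 4 and Control 2), slc32a1, snap25a and msi2b are higher in the high class, psmd1 was not called, and rpl8, myhz1.1, hbae3 and apoa1b are lower in the high class.

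Ribosomal protein genes, whose products build the ribosome, were lower almost without exception. All 48 tested genes of the large subunit and 36 of 37 of the small subunit were lower, none was higher, and the medians were -0.25 and -0.26. For rpl8 the high libraries had 813, 893 and 1142 CPM and the low ones 1075, 1111 and 1213 CPM (-0.27 ± 0.06, adjusted p = 0.00435). Only Glucose 6 at 1142 CPM, the library next to the class boundary, lay among the low libraries. Summed over the large subunit, the high libraries spanned 25524 to 36293 CPM and the low ones 33811 to 38643 CPM. Changes of the members ran from -0.33 to -0.19 (rpl26) in the large subunit, and rps18 of the small subunit had -0.25.

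Of 49 translation factors 29 were lower and 3 higher. The initiation factor gene eif3k was lower (-0.21 ± 0.04), whereas the most abundant, eef1a1l1, missed the threshold (-0.19 ± 0.07, adjusted p = 0.0539). Its paralog eef1a1a was higher (0.46). Mitochondrial ribosomal protein genes were lower in 47 of 68 cases and higher in none. Of the respiratory chain genes 79 of 88 were lower, at a median of -0.21. Cytochrome oxidase subunit cox7c had 91.9, 98.5 and 114 CPM in the high libraries and 116, 123 and 134 CPM in the low ones, with no overlap (-0.31 ± 0.05, adjusted p = 0.00247). The 1 respiratory gene that was called higher was cox4i2 (0.19), an isoform of cytochrome oxidase subunit IV. Of the 88, 3 had a log2 value above 0, the largest being ndufs8b (0.78).

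Proteasome genes were lower in 34 of 45 cases, with psmd4a at -0.19. The 2 most abundant, psmd1 (0.04 ± 0.04) and psmd2 (0.02 ± 0.03), were not called. Splicing genes went the other way, with 31 of 82 (37.8%) higher and 4 (4.88%) lower, beside 21.4% and 20% of all genes tested. Their median was 0.06, beside -0.04 over all genes. Those higher include the SR and hnRNP protein genes srsf7b (0.45), hnrnpa0a (0.63) and the coactivator srrm1 (0.39), and those lower were snrpd2 (-0.16), ddx39aa (-0.15), sf3a3 (-0.12) and snrpb (-0.11). In the fit of Glucose and FFA alone 3 of 82 were higher, a smaller share than the 1009 of 13565 genes tested there. In the short list of nonsense-mediated decay, 7 of 14 were higher, among them upf3a (0.64) and the kinase gene smg1 (0.34), and 2 were lower, among them eif4a3 (-0.10). Genes of DNA replication had 11 of 51 lower and 1 higher, a share lower near the 20% of all genes tested, and those of mitosis 7 of 52 lower and 1 higher.

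Muscle, blood, liver and skin genes were lower by a similar amount. Fast skeletal muscle had 45 of 53 genes lower and 1 higher, ckmt2a (1.17), a creatine kinase gene. The fast myosin gene myhz1.1 had 7479, 8137 and 9640 CPM in the high libraries and 9235, 9650 and 10978 CPM in the low ones (-0.22 ± 0.06, adjusted p = 0.0102). The muscle methyltransferase gene smyd1a (-0.37) separated in all 3 groups. Slow muscle had 12 of 15 lower and heart muscle 10 of 18, and neither had a higher one. The list of myogenic regulators and muscle membrane had 11 of 32 (34.4%) lower and 6 (18.8%) higher, at a median of -0.11. Beside 20% and 21.4% of all genes tested, its share higher was near that of all genes. In the heart list mybpc3 had a change of -0.29 the atrial peptide gene nppa -0.38 and the cardiac light chain gene myl7 -0.31.

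Erythrocyte genes were lower in 16 of 31 cases. The alpha-globin gene hbae3 had 422, 482 and 833 CPM in the high libraries and 597, 640 and 850 CPM in the low ones (-0.38 ± 0.07, adjusted p = 0.00247). The 1 higher was the blood and endothelial regulator gene tal1 (0.48). Liver secretory genes were lower in 52 of 72 cases and higher in none, at the lowest median of all lists (-0.28). The apolipoprotein gene apoa1b had 2066, 2678 and 3429 CPM against 3044, 3273 and 3922 CPM (-0.31 ± 0.08, adjusted p = 0.0101). The hemopexin gene hpx had the lowest log2 value of the list and was not called (-0.82, adjusted p = 0.101), and the apolipoprotein gene apoa4a was the lowest among those called (-0.53). Keratinocyte and skin genes were lower in 30 of 47 cases, with the tight junction gene cldn1 at -0.35. The keratin genes krt4 and krt5 (-0.26 each) passed the threshold narrowly, at adjusted p values of 0.0341 and 0.0275.

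The yolk and vitellogenin list had 7 of 10 genes lower, but neither of its vitellogenins was called, vtg1 (-0.00 ± 0.14, adjusted p = 0.996) or vtg7 (0.07, adjusted p = 0.899). The 7 were the lipoprotein and lipid transfer genes apobb.1, apoc2, apoeb and cetp, the cathepsin genes ctsba and ctsla, and afp4, of which apobb.1, apoc2 and apoeb are also in the liver list. Pigment cells had 19 of 35 lower and 2 higher. The matrix list had 28 of 56 lower and 3 higher, with col1a1a at -0.21 and col1a1b not called (-0.10 ± 0.08, adjusted p = 0.351). Macrophage and neutrophil genes were lower in 11 of 39 cases (28.2%), beside 20% of all genes tested, and higher in none. With library size alone 7 of 39 were lower, beside 1400 of 13661 genes tested.

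Stress and clock lists differed in direction, beside 21.4% of all genes tested called higher and 20% called lower. Oxidative stress and glutathione genes had 29 of 49 lower and none higher, with the peroxiredoxin gene prdx4 at -0.23 and the ferritin gene fth1a at -0.19. Heat shock genes had 16 of 52 lower and 5 higher, and hsp70l was not called (-0.74 ± 0.56, adjusted p = 0.296). It was between 0.41 and 66.3 CPM and above 5 CPM in the 6 FFA libraries alone. The immediate early gene fosab was not called (-0.01 ± 0.25, adjusted p = 0.988), at 24.8 to 213 CPM in the high libraries and 51.4 to 214 CPM in the low ones. Of 49 clock and light-induced genes 19 were higher and 2 lower, led by nr1d4a, roraa (0.69) and csnk1e (0.67). The light-induced gene per2 was not called (0.12 ± 0.12, adjusted p = 0.433).

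Of 40 glycolysis genes 12 (30%) were higher and 17 (42.5%) lower, beside 21.4% and 20% of all genes tested. Vertebrates keep paralogs of most steps that are used in different tissues, and no list of isoforms by tissue was counted here. Those higher include eno2 (0.51 ± 0.12, adjusted p = 0.00459) and aldocb (0.28 ± 0.07), whose mammalian counterparts are the brain forms of enolase and aldolase, and hk1 (0.31). The glucose transporter genes slc2a1a (0.56) and slc2a3a (0.31) and the pyruvate dehydrogenase gene pdha1b (1.31) were higher with them. Those lower include the muscle forms eno3 (-0.29 ± 0.05, adjusted p = 0.00247), aldoab (-0.30), pgam2 (-0.30) and pfkma (-0.26), and the liver form pklr (-0.22). For eno3 the high libraries had 683, 736 and 876 CPM and the low ones 817, 929 and 993 CPM. The abundant gene gapdh was lower (-0.30) and its paralog gapdhs was not called (0.10 ± 0.04, adjusted p = 0.0671). Apart from eno3 and gapdh, the glycolysis genes were named after their values were seen. In the fit of Glucose and FFA alone 2 of 40 were higher and 8 lower, beside 1009 and 476 of 13565 genes tested there. Scaling by library size alone gave 15 higher and 11 lower, beside 3629 and 1400 of 13661 genes tested.

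**Figure D4:**
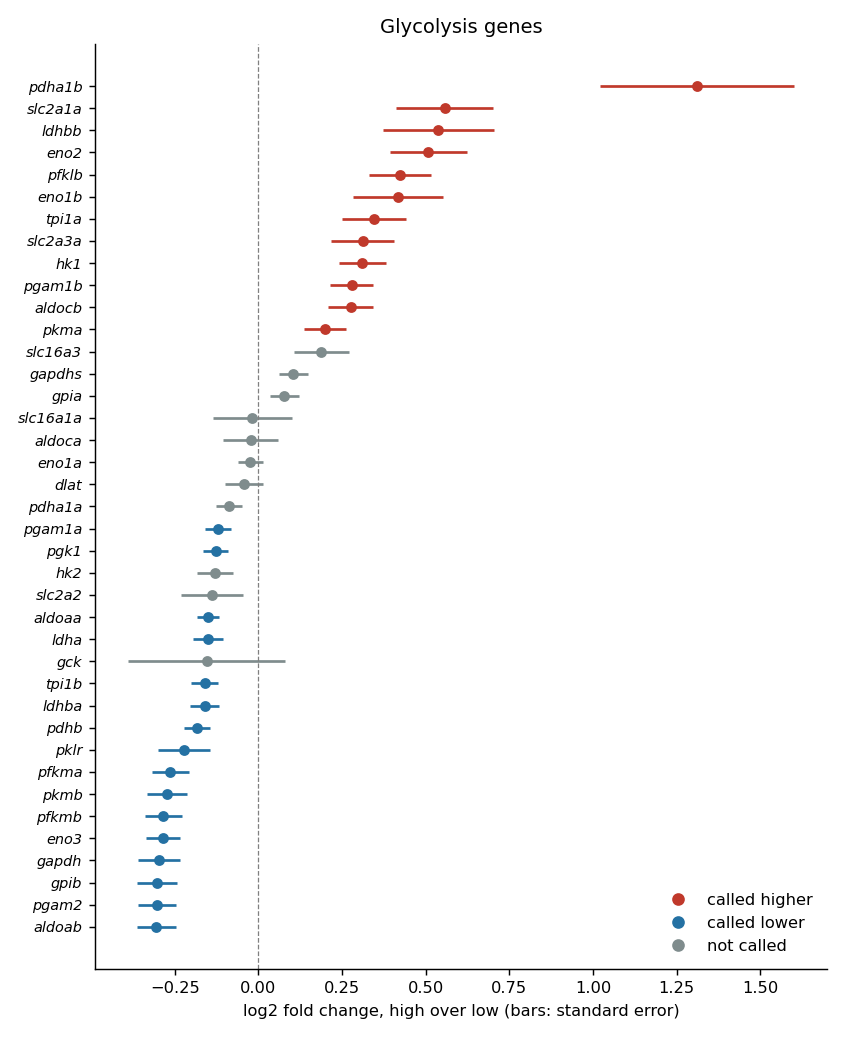
Log2 fold change of high over low libraries (x axis; bars are standard errors) for 39 of the 40 tested glycolysis genes (y axis), red where called higher, blue where called lower and grey where not called. The genes run from aldoab at -0.30 to pdha1b at 1.31, with pgam2, gapdh and eno3 near the low end and eno2, ldhbb and slc2a1a near the high end.

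The same contrast was then taken inside each title group, in 1 fit with a mean for each of the 6 classes. Control, with 2 libraries against 2, gave 4975 called genes (36.4% of those tested), 2606 higher and 2369 lower. Glucose and FFA, with 3 against 3, gave 0 each by edgeR's quasi-likelihood test, with 3399 and 2010 genes at an unadjusted p under 0.05. The gap in share between high and low libraries was widest in Control. Of the 4975 genes called in Control, 4805 (96.6%) had the same sign in Glucose and 4474 (89.9%) the same sign in FFA. Over all genes tested these figures were 81.3% and 75.0%. Genes that change together are not separate cases, and those called have larger changes, so the higher shares are no independent support. The median absolute change of the 4975 genes was 0.52 in Control, where they were selected, 0.24 in Glucose and 0.17 in FFA, beside 0.29, 0.16 and 0.13 for all genes tested. The Control calls rest on few libraries: without Control 4 there were 22, without Control 1 582 and without Control 2 2706. Without Glucose 6, the high library next to the boundary, Glucose had 1302 calls.

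Among the 16 lists plotted by group, all but the erythrocyte and lens lists had the median farthest from 0 in Control. Phototransduction genes had medians of 2.01 in Control, 1.02 in Glucose and 0.55 in FFA, and postsynaptic genes 1.49, 0.80 and 0.53. Large ribosomal subunit genes had -0.41, -0.21 and -0.18. Erythrocyte genes had -0.20, -0.23 and -0.21. Liver genes ran from -0.48 in Control to -0.10 in FFA. In Glucose the summed phototransduction level was 10558 CPM in replicate 4. The high replicates 1 and 6, at 2967 and 3489 CPM, lay inside the low range of 2204 to 3900 CPM. For photoreceptor development, replicate 4 had 1492.5 CPM and replicates 1 and 6 had 620 and 698 CPM, beside 476 to 622 CPM in the low ones.

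**Figure D5:**
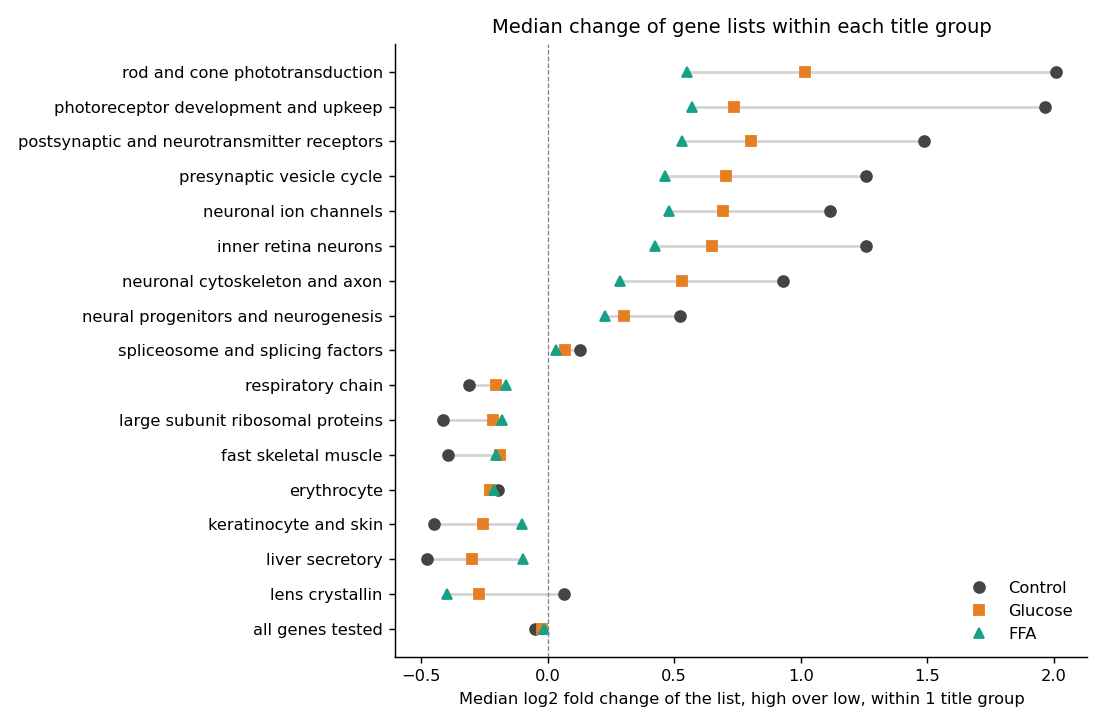
Median log2 fold change of high over low libraries within Control (circles), Glucose (squares) and FFA (triangles) (x axis) for 16 gene lists and all genes tested (y axis). Retinal and neuronal lists are above 0 in all 3 groups, with phototransduction at 2.01, 1.02 and 0.55. In Glucose, the summed phototransduction level was above the low range in replicate 4 only. Lens crystallins change sign, from 0.07 in Control to -0.40 in FFA.

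A test of the difference between the groups called 2 genes (0.0146%), with 1434 (10.5%) at an unadjusted p under 0.05. The cytochrome P450 gene cyp2p9 had 19.99 and 14.7 CPM in the high Control libraries and 46.7 and 50.5 CPM in the low ones, a change of -1.49 ± 0.15. In FFA it had 39.1 to 47.9 CPM in the high libraries and 27.7 to 33.9 CPM in the low ones (0.51 ± 0.12). In all 6 Glucose libraries it lay between 0.20 and 0.59 CPM. The adjusted p of the difference was 0.0051. For si:dkey-184p18.2 the change was -2.35 ± 0.34 in Control, -0.52 ± 0.26 in Glucose and 1.04 ± 0.23 in FFA (adjusted p = 0.0248). Taken pairwise, FFA minus Control called 7 genes (0.0512%), and Glucose minus Control and FFA minus Glucose called 0 each, with 1185 and 427 at an unadjusted p under 0.05.

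Control 6 entered none of these fits, and its share lay 0.48 of the way from the mean of the low Control libraries to that of the high ones. Its CPM lay between the same means for 83.8% of the 2927 genes called higher, for 85.7% of the 2735 called lower and for 45.1% of the 7999 genes not called. The calls themselves used the other Control libraries and pick genes whose high and low libraries lie far apart. A larger share among called genes is therefore partly built in and is no independent support. For slc32a1 it had 116 CPM, between 30.3 and 71.8 CPM in the low Control libraries and 158 and 197 CPM in the high ones. For the photoreceptor gene rho, Control 6 had 170 CPM, beside 149 and 299 CPM in the low Control libraries.

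How counts spread over genes was compared by an exact two-sided permutation test of classes within groups (2400 arrangements, smallest p possible 0.000833), adjusted over 3 measures. The 100 most abundant genes held 21.1 ± 1.52% of gene counts in the high libraries and 23.4 ± 0.67% in the low ones (SD, n = 8 each), a difference of -2.32 percentage points between the means of the 8 libraries (exact p = 0.00583, adjusted 0.0175). This difference had the same sign in Control (-3.73), Glucose (-1.89) and FFA (-1.82). The number of genes detected at a common depth of 10208640 counts was 14239 ± 33.8 and 14229 ± 35.8, a difference of 10.17 (exact p = 0.0517, adjusted 0.0775). The ambiguous share of reads that lie on genes was 0.353 ± 0.015% and 0.351 ± 0.012%, a difference of 0.0022 points (exact p = 0.606).

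With Control 1, Control 2 and Glucose 4 left out, which removes every high Control library, edgeR called 0 genes, 3452 genes had an unadjusted p under 0.05, and the smallest adjusted p was 0.06. In that fit the median was 0.37 for phototransduction, 0.43 for photoreceptor development, 0.51 for postsynaptic, 0.48 for presynaptic and 0.18 for islet genes. It was -0.14 for the large ribosomal subunit, the respiratory chain and the liver list, -0.17 for fast muscle, -0.16 for erythrocytes and -0.08 for keratinocytes and skin. These medians have the sign they had with all 16 libraries and lie closer to 0. The fit without Control 1, Control 2 and Glucose 4 compares high with low only inside Glucose and FFA, and its 0 calls thus come from those groups without Glucose 4. With Glucose and FFA alone and Glucose 4 kept, 1485 of 13565 genes tested were called, 1009 higher and 476 lower. There 21 of 41 postsynaptic, 21 of 35 presynaptic and 33 of 46 cytoskeleton and axon genes were higher, but 7 of 25 photoreceptor development genes. Those lower were 41 of 88 in the respiratory chain and 13 of 53 in fast muscle. Fewer calls were left elsewhere. In the large and small ribosomal subunit 2 of 48 and 6 of 37 were lower, at medians of -0.20 and -0.20. In the liver and skin lists 5 of 72 and 4 of 47 were lower, at medians of -0.21 and -0.17. The share in the large subunit was near that of all genes in this fit, 476 of 13565.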

How the data were processed

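Per the labels' protocols, TRIzol and columns were used for the RNA, a stranded mRNA kit for the libraries, and 1 run with 75 bp paired reads for all 17. The deposited values are raw read counts per gene, whole numbers for 15316 named genes with no normalization, and 2 further lines (no feature, ambiguous) hold reads given to no gene. STAR, DESeq2 and danRer7 are named in the submitters' processing notes without version or role. How reads were counted, on which strand and with what rule for paralogs was not stated in the sources used here, so members of close families (globins, opsins, crystallins, vitellogenins) and overlapping or antisense genes are uncertain as single genes. The no-feature line held 29.9% to 36.6% of all counts and the ambiguous line 0.213% to 0.252%, and both stayed out of library sizes and tests.

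The gene counts went into edgeR 4.0.16 under R 4.3.3. Its filterByExpr at a minimum count of 10 kept 13661 genes and removed 1655, TMM set the scaling, and the quasi-likelihood test compared high with low classes with the title group as a block (12 residual degrees of freedom, common biological coefficient of variation 0.1185). Contrasts inside groups and differences between groups came from 1 fit with 6 class means (10 residual degrees of freedom). The threshold for a call was 0.05 after Benjamini-Hochberg adjustment over all genes tested. CPM (on TMM-scaled library sizes), their sums and the fold changes were computed here from the deposited counts. Fold changes are log2 unless marked as fold, errors of fold changes are standard errors, and a list's median is over its tested members.

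The libraries' classes, the gene lists and the tests were chosen with earlier results of these data known. The lists held 2735 entries, of which 2321 matched the files, 75 of them by an older symbol. Named genes were the 12 largest changes each way among called genes whose mean reached 5 CPM, whose classes separated in all 3 groups and that have a gene name, from each list with at least 5 tested members of which at least 40% were called in 1 direction the 2 most abundant members and the called member with the smallest p, genes whose change differed between groups, and a panel of 26 genes of which 21 are in the files. A few genes that the rule names are not reported here. Others are outside the rule and were chosen after their values were seen, such as ends of a list and the members given for the islet, clock, splicing, glial, visual cycle, appetite and glycolysis lists.

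On simulated counts for the 13661 genes of the comparison of high with low, the procedure recovered 83.6% of changes of 1.5-fold, 98.5% of those of 2-fold and 100% of those of 4-fold, with 4.57% false calls. The smallest of these changes, 1.5-fold, is larger than the median called change in the data, 0.41 higher and 0.22 lower on the log2 scale. Recovery at such smaller sizes is not known from it. All 40 pairs of libraries within a group differed by more than sampling noise (4.33 to 68.8 chi-square per degree of freedom), and none was counted as a duplicate. Alternatives were RLE factors, library size alone, no filter, a mean of at least 5 CPM, DESeq2 1.42.0, limma-voom (limma 3.58.1), replicate and treatment-tag blocks, the share as a continuous value, other cuts of the ranking, total count as a covariate, Control 6 in either class, and leaving out libraries.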

Additional observations from a re-analysis of the deposited data

Results flagged for a closer look

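Values of 121 named genes and of the library measures were screened per title group for a library far from the others. Of 378 sets of values screened, 24 were flagged, and chance flags about 1 in 20. In the Glucose group, replicate 4 was the library far from the rest for rho (1348 CPM), opn1sw1 (1611 CPM), opn1lw2 (1018 CPM), gnat2 (555 CPM), arr3a (462 CPM), neurod1 (211 CPM), syt5b (164 CPM) and ctbp2a (121 CPM), all genes of photoreceptors or their list. It also stood apart for pcdh15b (28.6 CPM), dnm1a (65.1 CPM), ctnnd2b (89.7 CPM), kcnd3 (28.8 CPM), smg1 (265 CPM), tpm3 (832 CPM) and txnipa (369 CPM). Other Glucose libraries flagged were replicate 2 for col1a1b (4522 CPM) and si:dkey-184p18.2 (6.12 CPM) and replicate 1 for vtg1 (8.89 CPM). In FFA, replicate 5 was far from the others for tfap2a (271 CPM), replicate 2 for apobb.1 (9028 CPM) and atic (232 CPM), and replicate 1 for fosab (64.3 CPM). In Control, replicate 4 was flagged for capn12 (101 CPM) and replicate 1 for eif4a3 (142 CPM).

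The change between high and low libraries differed between the title groups for cyp2p9 (adjusted p = 0.0051) and si:dkey-184p18.2 (adjusted p = 0.0248), which were lower in the high libraries of Control and had the opposite sign in FFA.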

How the results depend on the processing

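Of 5662 genes called, the count became 3316 with the highest and lowest library of each group alone (1156 lower), 1485 with Glucose and FFA alone (1009 higher, 476 lower), 0 without Control 1, Control 2 and Glucose 4 (0 each way, 3452 at an unadjusted p under 0.05) and 2858 at an adjusted p under 0.01 (1744 higher, 1114 lower). The number lower was 1400 with library size alone, 1775 with the treatment tag as block and 4188 with the share as a continuous value. The other settings gave 4159 to 7826 calls in all: 5593 with RLE factors, 5537 with no filter, 5316 at a mean of at least 5 CPM, 5631 with DESeq2 (4 adjusted p not given), 5782 with limma-voom, 5061 with total count as covariate and 6102 with Glucose 5 and 6 left out, which was chosen after seeing the data. With 1 library left out at a time, calls were 4334 to 6313 (higher 2402 to 3146, lower 1911 to 3167), within Control 22 to 5755, within Glucose 0 to 1302, within FFA 0 to 10, and for the differences between groups 0 to 3 (any), 1 to 264 (FFA minus Control), 0 to 0 (Glucose minus Control) and 0 to 0 (FFA minus Glucose). FFA minus Control had 264 without Control 3 and 138 without Glucose 4, FFA had 10 without FFA 2, and the difference between any groups had 0 without Control 2. At a mean of at least 5 CPM the difference between groups called 1. A replicate block gave 4381 calls; same-numbered libraries did not deviate together (14 pairs, correlations -0.40 to 0.25, 4 over 0.1, and 1 of 16 libraries correlated best with its own number), so the numbers are not read as pairs.

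Genes detected differed by 7.75 to 12.3 with 1 library left out and by 35.8 (exact p = 0.0108) when 5 counts were asked for. The same range was -2.72 to -2.08 points for the share of the top 100 genes and 0.000124 to 0.004 for the ambiguous share.

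Of 103 named genes called, 96 stayed called whichever library was left out; col1a1a, eif4a3, krt4, krt5, nppa, opn1lw2 and paics lost the call without 1 to 10 single libraries (adjusted p 0.0513 to 0.0805). None of the 103 changed sign in any other setting, while 40 lost the call with Glucose and FFA alone and all 103 without the 3 libraries. Signs changed only for genes not called. For fosab the values were 0.00133 (RLE), 0.0545 (library size), 0.000284 (5 CPM), 0.0387 (voom), 0.11 (replicate block), 0.0693 (Control 6 as low), 0.192 (3 libraries out) and 0.0327 (Glucose 5 and 6 out), and -0.17 to 0.14 with 1 library out. For vtg1 they were 0.00754 (RLE), 0.0626 (library size), 0.00131 (no filter), 0.0196 (voom), 0.246 (tag block), 0.0379 (continuous), 0.0652 (highest and lowest 2) and 0.0159 (Control 6 as low), and -0.15 to 0.055 with 1 out. For cryaa they were 0.11 (tag block), 0.0165 (continuous) and 0.271 (extremes), and -0.26 to 0.014 with 1 out. With library size alone tubb4b had 0.000361 and copa 0.0139. Without the 3 libraries psmd2 had -0.0106, pnp5a 0.00496, cyp2p9 0.482 and si:dkey-184p18.2 0.449, and with Glucose and FFA alone the last 2 had 0.448 and 0.331. The causes were not tested.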
